A study of Mus musculus with 2 samples.

Results

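Tectb-high supporting cells of the postnatal day 2 (P2) mouse utricle are described here, 166 cells of 923 supporting cells (SCs) in 1 single-cell library. Tectb encodes beta-tectorin, a protein of the extracellular gels that lie over inner ear sensory epithelia. The members were chosen from the counts themselves. Barcodes with at least 500 genes, at least 1000 unique molecular identifiers (UMIs, tags that count captured transcripts) and up to 15% mitochondrial UMIs were kept, 4081 of 6251. SCs were kept cells with at least 1 Epcam UMI (an epithelial adhesion protein), at least 2 Sox2 UMIs (a progenitor and SC transcription factor), up to 1 UMI each of the hair cell (HC) factors Pou4f3 and Atoh1, and Zpld1, a crista gene, below 10 per 10,000 UMIs. SCs with Tectb at 5 or more per 10,000 UMIs were called Tectb-high, and the other 757 SCs were the comparison. The 166 cells were 18.0% of the SCs (exact binomial 95% interval 15.6 to 20.6%) and 4.07% of the kept P2 cells.

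The series holds 2 libraries of utricular sensory epithelium from wild-type mice, 1 from P2 and 1 from embryonic day 14 (E14), made after thermolysin peeling and Accutase dissociation with a 3′ droplet kit. No treatment is named for either age. Tissue of several animals went into each library, so animals cannot be told apart, and with 1 library per age no difference has a replicate check. All intervals given cover counting error only, and no p-value was computed. By the same rule the E14 library gave 98 Tectb-high cells of 640 SCs, 15.3% (12.6 to 18.3%). The 2 libraries shared 23 barcodes, and 0 of the 166 members carried one of them.

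The utricle senses linear acceleration through HCs whose bundles reach into a gel loaded with otoconia, crystals of calcium carbonate. SCs surround the HCs, secrete much of that gel and hold its ion balance. The striola is a narrow band of the macula near the line where bundle orientation reverses, and in mice Tectb and the retinoic acid degrading enzyme Cyp26b1 are known from SCs of this band. Dissociated cells carry no position, and none was measured in these libraries.

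The Tectb gene lies on chromosome 19 (chr19:55180733-55196313, plus strand, GRCm38, GENCODE M21). Its RefSeq promoter window, 250 bases before to 50 after the gene start on GRCm38.p6, is printed because Tectb chose the cells. The window of Rarb, retinoic acid receptor beta, is printed because Rarb and most measured retinoic acid genes were lower in these cells (values below). It lies at a start site inside the longest GENCODE M21 gene span of Rarb (chr14:16430839-16819156, minus strand), not at the far end of that span. Capitals mark a direct repeat, the letters GGTTCA and AGTTCA with 5 bases of any kind between them, the retinoic acid response element known from the Rarb promoter.
Tectb, chr19:55180476-55180775, plus strand: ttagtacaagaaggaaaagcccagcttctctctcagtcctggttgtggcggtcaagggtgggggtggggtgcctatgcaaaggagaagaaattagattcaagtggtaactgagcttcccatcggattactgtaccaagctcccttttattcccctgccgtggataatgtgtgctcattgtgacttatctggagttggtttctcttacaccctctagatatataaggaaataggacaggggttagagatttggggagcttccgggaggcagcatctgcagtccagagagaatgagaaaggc
Rarb, chr14:16575427-16575726, minus strand: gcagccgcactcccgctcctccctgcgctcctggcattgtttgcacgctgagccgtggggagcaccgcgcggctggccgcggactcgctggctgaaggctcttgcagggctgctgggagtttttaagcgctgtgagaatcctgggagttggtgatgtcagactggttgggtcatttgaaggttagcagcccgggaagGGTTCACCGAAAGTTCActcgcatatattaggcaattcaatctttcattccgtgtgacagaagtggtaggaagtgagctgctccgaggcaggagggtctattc
Both strands were searched. The repeat was found in 2 of 32851 RefSeq windows of the same length (0.00609%), and the related repeat of AGGTCA and AGGTCA with the same spacing in 3. The letters of the first repeat were those of the known Rarb element, so its match in the Rarb window followed from that choice. A match describes letters in a window and was not tested as a binding site.

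Tectb itself spanned a wide range within the members. It was 5.17 per 10,000 UMIs in the lowest member, 77.4 at the median and 208 in the highest, and 1 cell held 678 Tectb UMIs. Among the other SCs 477 held none, and the highest stood at 4.94. Just inside the limit the values were 5.17, 5.21 and 5.25, and just outside it they were 4.94, 4.81 and 4.71, so no gap separates the groups at the limit. The distribution had a broad upper part, with 63 members at 100 or more and 37 between 50 and 100, against 28 between 5 and 10. The 28 cells nearest the limit were shallow (median 1592.5 UMIs), and in 19 members the call rested on 1 Tectb UMI. At E14 the members had a median of 21.1 and a maximum of 119. Tectb was also found outside SCs at P2, at 544 counts per 1000000 (CPM, UMIs of the gene per 1000000 UMIs summed over a group) in HCs, 98.4 CPM in other epithelial cells and 959 CPM in the 203 remaining kept cells, against 9387 CPM in the members and 33.1 CPM in the other SCs. The pooled levels of HCs, of the remaining cells and of all kept P2 cells (605 CPM, members included) lay above the limit of 5 per 10,000 UMIs.

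**Figure D1:**
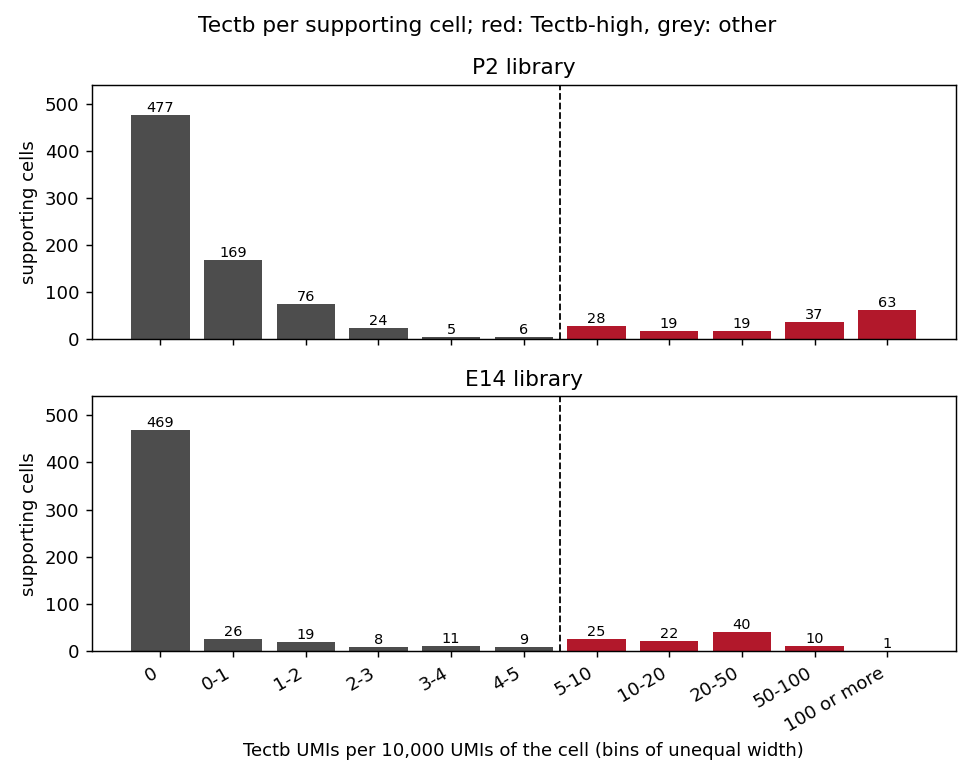
Number of supporting cells (y axis) by Tectb UMIs per 10,000 UMIs (x axis, bins of unequal width) in the P2 library (top) and the E14 library (bottom), with the limit of 5 as a dashed line, Tectb-high cells in red and other supporting cells in grey. At P2, 477 cells held no Tectb and 63 stood at 100 or more, while at E14 only 1 cell did.

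Across the transcriptome, genes with at least 50 UMIs in the Tectb-high and other SCs together were compared, 10970 in all without the genes of the rule. A gene was counted as higher or lower when the ratio of CPM passed 2-fold. By this rule 971 genes (8.85%) passed, of which 302 (2.75%) were higher and 669 (6.1%) lower in the Tectb-high cells, with a median log2 ratio of -0.03 over all genes. The same cells and the same Tectb rule underlie these counts, so they are a description. In the E14 library 1077 of 10840 genes (9.94%) passed 2-fold, 331 (3.05%) higher and 746 (6.88%) lower in the Tectb-high cells. At E14 red blood cell markers summed to 268 CPM in Tectb-high SCs and 3685 CPM in other SCs and immune markers to 3.62 CPM in Tectb-high SCs and 47.9 CPM in other SCs, and 9.18% of Tectb-high SCs and 21.03% of other SCs were among the cells with the highest doublet scores. Without those cells 303 genes were higher and 649 lower at E14. At an equal depth of 7000 UMIs the number of genes per cell was close, 2633 in members and 2673 in other SCs at the median.

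The members held 1784375 UMIs in all, with a median of 9536.5 per cell, against 11726412 UMIs and a median of 10945 in the other SCs. Their median mitochondrial share was 4.41%, against 3.95% in the other SCs. The label of SC was checked on 12 markers outside the rule, all of which had UMIs in the members. They summed to 2913 CPM in the members, 3960 CPM in the other SCs and 1348 CPM in HCs. The sum was 1795 CPM in other epithelial cells and 2658 CPM in the remaining kept cells, close to the members. Otol1 alone was 1275 CPM in the members. Hes5 was more than 2-fold higher and Otop1 and Lfng lower in the members. The 13 HC markers outside the rule summed to 492 CPM in the members and 403 CPM in the other SCs, against 7095 CPM in HCs. Without cells high in these markers, which left 134 members and 710 other SCs, 277 genes were higher and 728 lower, and all 30 named genes described below stayed past 2-fold. Among the 13 HC markers, over all members and all other SCs, Lhfpl5, of the mechanotransduction complex, was past 2-fold at 22.4 CPM in members and 9.64 CPM in other SCs. Of 11 measured at P2, 9 had a ratio above 1 and 2 below 1, against 47.0% of all genes above 1. At E14 Otof, Gfi1, Calb2, Pvalb and Ccer2, 5 of 9 measured, were more than 2-fold higher and 0 lower. Over all genes at E14 3.05% were higher and 6.88% lower. The highest of the 13 were Ccer2 (129.5 CPM in members and 76.8 CPM in other SCs), Myo6 (113 CPM in members and 157 CPM in other SCs), Otof (60.0 CPM in members and 38.9 CPM in other SCs) and Espn (55.5 CPM in members and 40.0 CPM in other SCs). The crista markers Lmo4 and Msx1 summed to 235 CPM in members and 92.4 CPM in other SCs, nearly all of it Lmo4. The defining markers of the remaining cell types were low. The sum of 7 mesenchymal markers was 10.7 CPM in members and 21.8 CPM in other SCs. It was 3.92 CPM in members and 2.22 CPM in other SCs for 5 immune markers, 1.68 CPM in members and 0.597 CPM in other SCs for 4 endothelial markers, and 9.53 CPM in members and 6.91 CPM in other SCs for 4 red blood cell markers. Only 2 mesenchymal markers and 1 red blood cell marker had at least 50 UMIs, and none of them passed 2-fold. No immune or endothelial marker reached 50 UMIs, so those lists could not show a marker past 2-fold. Among 4 melanocyte markers only Pmel had UMIs in the members (25.2 CPM, against 15.1 CPM in other SCs), with Dct, Tyr and Mlana at 0. Glial markers summed to 86.3 CPM in members and 78.7 CPM in other SCs. Tubb3, a neuronal tubulin, was 19.6 CPM in members and 3.50 CPM in other SCs. The 3 neuronal markers Tubb3, Nefl and Nefm summed to 97.5 CPM in members and 55.4 CPM in other SCs, against 1130 CPM in HCs. Isl1, also planned as a neuronal marker, was left out of this sum and is described with the regional factors. It was 774.5 CPM in members and 100.6 CPM in other SCs.

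Igfbp3, the second marker of these cells, was next compared. Igfbp3 encodes a secreted protein that binds insulin-like growth factors, on chromosome 11 (chr11:7206086-7213923, minus strand). It was 402 CPM in Tectb-high SCs and 80.8 CPM in other SCs at P2, a ratio of 4.98 (95% interval 4.52 to 5.50). In the E14 library it was 847 CPM in Tectb-high SCs and 158 CPM in other SCs, a ratio of 5.37 (4.98 to 5.80). Igfbp3 thus stood several fold higher in the Tectb-high cells of both libraries. Every cell was thinned to 7000 UMIs, which left 96 members, 611 other SCs and 982 HCs. An Igfbp3 UMI was then found in 90.6% of the members (exact 95% interval 83.0 to 95.6%), 28.0% of the other SCs (24.5 to 31.7%) and 12.8% of the HCs. The share that free RNA could give was not tested. Before thinning the shares were 70.5% of members (median depth 9536.5 UMIs), 35.8% of other SCs (10945 UMIs) and 21.7% of HCs (16826 UMIs). Thinning left out 70 members and 146 other SCs as too shallow.

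Among the genes with the largest ratios, several act at the cell surface and in the matrix. Cpa6, an extracellular carboxypeptidase, was 57.2 CPM in Tectb-high SCs and 2.98 CPM in other SCs, 19.2-fold higher (95% interval 12.9 to 29.0). Pcdh19, a protocadherin, was 52.1 CPM in Tectb-high SCs and 3.41 CPM in other SCs, 15.3-fold higher (10.4 to 22.7). Itga8, the integrin alpha 8 subunit known for its role in vestibular hair cell stereocilia and kidney growth, was 86.3 CPM in Tectb-high SCs and 5.88 CPM in other SCs, 14.7-fold higher (11.0 to 19.8). Abi3bp, a matrix protein, was 39.2 CPM in Tectb-high SCs and 3.41 CPM in other SCs, 11.5-fold higher. Averaging cells in place of summing UMIs gave lower ratios, 8.83 for Cpa6, 9.51 for Itga8, 4.82 for Abi3bp and 4.60 for Kcnb2. Channels and intracellular proteins were also among them. Ano1, a calcium-activated chloride channel, was 47.1 CPM in Tectb-high SCs against 6.48 CPM in other SCs. Kcnb2, a voltage-gated potassium channel subunit, and Dab1, an adaptor of the Reelin pathway, were 7.61-fold and 6.88-fold higher. Kcnb2 was 40.9 CPM in members and 5.37 CPM in other SCs, with 17.6 CPM in HCs. Ppp1r14c, an inhibitor of protein phosphatase 1, was 11.6-fold higher, Fabp7, a fatty acid binding protein of glia and progenitors, 6.20-fold, Fsd1l 6.07-fold (123 CPM in members and 20.3 CPM in other SCs, with 92.7 CPM in HCs) and the non-coding RNA Pantr1 7.20-fold. All of these genes, with Isl1, Cyp26b1 and Sfrp2 described with their groups, were low but measured in the other SCs.

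The genes with the smallest ratios had between 0 and 5 UMIs in the members. Pcdh10, a protocadherin, had 0 UMIs in Tectb-high SCs and 219 in other SCs. With a floor of 3 UMIs over the group it was 11.1-fold lower, and the upper 95% limit of its ratio was 0.112. Dlk1, a Notch-related transmembrane protein, had 1 UMI in the members and 414 in 76 of the 757 other SCs (ratio 0.0159, 95% interval 0.000401 to 0.0889). Nos1, neuronal nitric oxide synthase, had 1 UMI in members and 184 in other SCs (ratio 0.0357, 0.000899 to 0.201), and Fbxw10 had 2 in members and 437 in other SCs (0.0301, 0.00363 to 0.109). Surface and matrix genes stood on this side too. Car12, a membrane carbonic anhydrase, was 2.24 CPM in Tectb-high SCs against 39.1 CPM in other SCs, and Itih5, a hyaluronan-binding matrix protein, 2.80 CPM in Tectb-high SCs against 52.0 CPM in other SCs. Prelp, a leucine-rich matrix protein, had 1 UMI in members and 148 in other SCs (ratio 0.0444, 0.00112 to 0.251), Acp7, a phosphatase, 1 in members and 119 in other SCs (0.0552, 0.00139 to 0.314; 0.584, within 2-fold, when cells were averaged), and the non-coding RNA Gm45768 1 in members and 138 in other SCs (0.0476, 0.00120 to 0.270). Adgrb1, an adhesion receptor, had 2 UMIs in members and 219 in other SCs (0.0600, 0.00722 to 0.219), and Sorcs3, a sorting receptor, 2 in members and 210 in other SCs (0.0626, 0.00753 to 0.229). Many of these genes were found in a minority of the other SCs, for example in 33.7% for Fbxw10 and 10.0% for Dlk1.

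**Figure D2:**
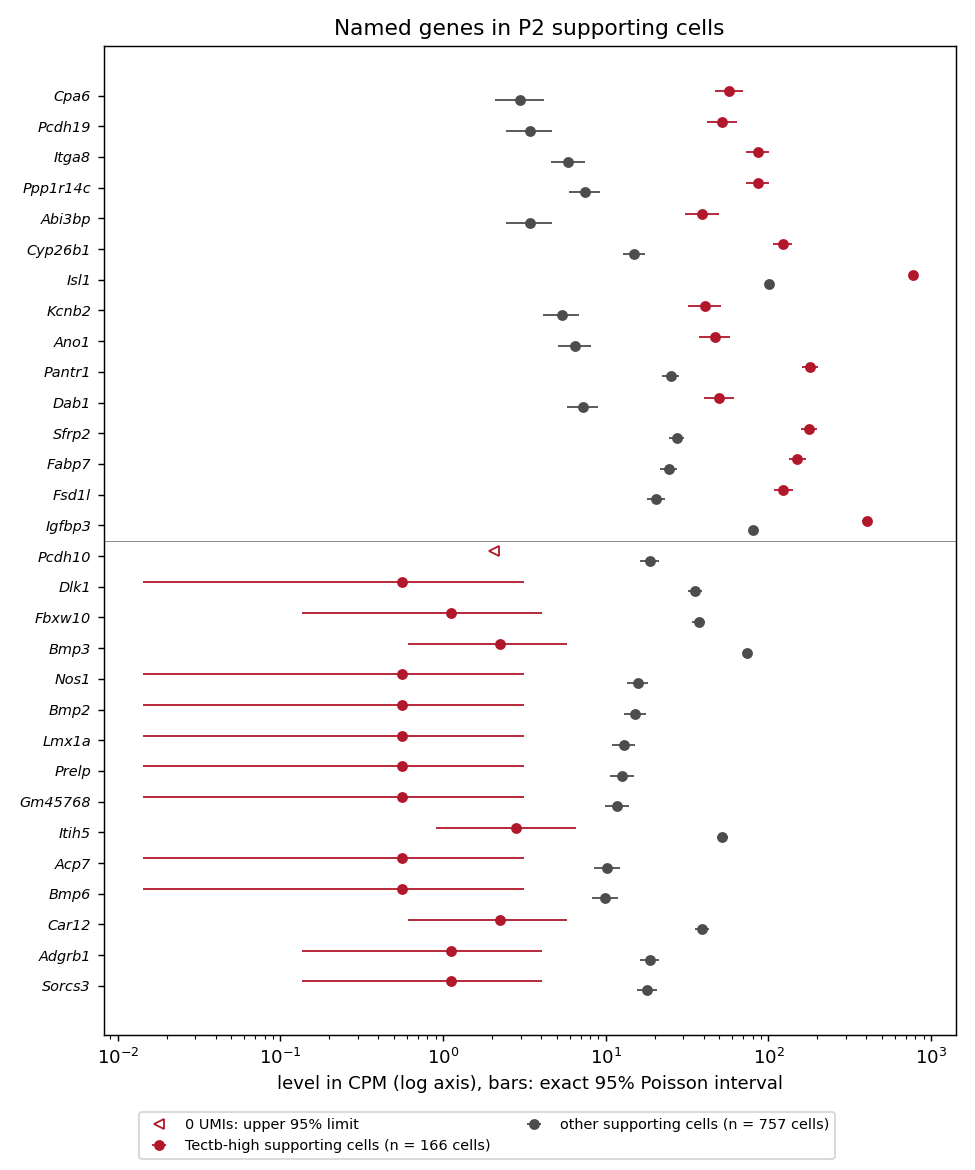
Levels of the 30 named genes in CPM (log x axis) in 166 Tectb-high (red) and 757 other (grey) P2 supporting cells, bars showing exact 95% Poisson intervals and the open triangle the upper limit of Pcdh10 at 0 UMIs. The 15 genes above the line were higher and the 15 below it lower in the Tectb-high cells. They were chosen as the largest and smallest ratios, so the separation of their intervals follows from the choice.

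Retinoic acid, made from retinal by Aldh1a enzymes and broken down by Cyp26 enzymes, patterns the inner ear. Cyp26b1, which breaks it down, was 122 CPM in Tectb-high SCs and 14.9 CPM in other SCs, 8.19-fold higher (6.68 to 10.0). Of the other measured genes of the pathway 7 were more than 2-fold lower and 0 more than 2-fold higher. Aldh1a3 was 82.9 CPM in members against 576 CPM in other SCs, and Aldh1a1 12.9 CPM in members against 83.2 CPM in other SCs. Rdh10, which makes retinal, was 35.9 CPM in members against 190 CPM in other SCs. These 3 synthesis genes were thus lower together. Dhrs3, which turns retinal back into retinol, and Crabp2, a carrier of retinoic acid, had ratios of 0.246 (0.157 to 0.369) and 0.489 (0.263 to 0.842). Rarb, whose window is printed above, had 4 UMIs in the members (2.24 CPM) against 364 (31.0 CPM) in other SCs, a ratio of 0.0722 (0.0196 to 0.187). Of 19 listed retinoic acid genes 13 passed the minimum, and 1 was more than 2-fold higher and 7 more than 2-fold lower (median log2 ratio -1.03, against -0.03 over all genes). Over all genes 2.75% were higher and 6.1% lower. At 7000 UMIs a Cyp26b1 UMI was found in 56.2% of members, 8.67% of other SCs and 9.78% of HCs, so the share in other SCs was no higher than in HCs.

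In the E14 library the same division was seen for Cyp26b1, Aldh1a3, Aldh1a1, Dhrs3 and Rdh10, which passed 2-fold in the same direction. Cyp26b1 was 136 CPM in E14 Tectb-high SCs and 16.8 CPM in other E14 SCs (ratio 8.10, 6.56 to 10.0), and Aldh1a3 was 68.7 CPM in E14 Tectb-high SCs against 484 CPM in other E14 SCs. Rarb had unlike ratios in the libraries, a difference that was not tested. It was 12.3 CPM in E14 Tectb-high SCs and 21.1 CPM in other E14 SCs, a ratio of 0.584, against 0.0722 at P2.

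The transcription factors that mark regions of the otic epithelium were compared next. Isl1, a LIM homeodomain factor of sensory progenitors, was 775 CPM in Tectb-high SCs and 101 CPM in other SCs, 7.70-fold higher (7.12 to 8.33), and was found at 7000 UMIs in 97.9% of members, 41.2% of other SCs and 40.2% of HCs, so the other SCs stood at the HC level. Nr2f1, an orphan nuclear receptor, had 55 UMIs in the members and 4 in other SCs, 30.8 CPM in members against 0.341 CPM in other SCs (ratio 90.4, 33.4 to 343), and was chosen for naming by its list as it fell under the minimum for the largest ratios. Gata3, a zinc finger factor needed for inner ear development, was 42.0 CPM in members and 8.44 CPM in other SCs, and Lmo4, a LIM-only cofactor, 232 CPM in members and 91.5 CPM in other SCs. Dlx3, with 0 UMIs in the members, Lmx1a, Emx2, Gata2, Hmx2, Pax2, Tbx3 and Hmx3 were lower, among them Hmx2, 27.5 CPM in members and 152 CPM in other SCs, and Hmx3, 60.5 CPM in members and 161 CPM in other SCs. Sox9 and Meis2 lay within 2-fold, with ratios of 0.804 and 0.949. Of 35 listed factors 27 passed the minimum, 4 were higher and 8 lower, against 2.75% higher and 6.1% lower over all genes. Lmx1a had 1 UMI in members (ratio 0.0432, 0.00109 to 0.245).

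At E14 Isl1, Gata3 and Lmo4 were again more than 2-fold higher. Isl1 was 741 CPM in E14 Tectb-high SCs against 130 CPM in other E14 SCs, Gata3 86.1 CPM in E14 Tectb-high SCs against 15.1 CPM in other E14 SCs, and Lmo4 332 CPM in E14 Tectb-high SCs against 157 CPM in other E14 SCs. Nr2f1 was 55.7 CPM in E14 Tectb-high SCs and 36.4 CPM in other E14 SCs, a ratio of 1.53 (1.18 to 1.96), so the other SCs held it at E14 but hardly at P2. Lmx1a, Dlx3, Emx2, Pax2, Hmx2, Gata2 and Hmx3 were lower in both libraries.

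Of the bone morphogenetic protein (BMP) ligands, Bmp2, Bmp3, Bmp4 and Bmp6 had 1 to 4 UMIs in the members, while Bmp7 was 40.9 CPM in members and 73.3 CPM in other SCs, within 2-fold. Bmp3 had 4 UMIs in Tectb-high SCs (2.24 CPM) and 870 in other SCs (74.2 CPM), a ratio of 0.0302 (0.00821 to 0.0776). Bmp2 had 1 UMI in members and 178 in other SCs (ratio 0.0369, 0.000930 to 0.208), and Bmp6 1 in members and 116 in other SCs (0.0567, 0.00142 to 0.322). Bmp4 was sparse in both, 1 UMI in members and 4.60 CPM in other SCs (ratio 0.122, 0.00303 to 0.708). Id3, an inhibitor of basic helix-loop-helix factors and a target of BMP signalling, was 158 CPM in members and 354 CPM in other SCs, and Smad7, an inhibitory Smad, and Sostdc1, a secreted antagonist, were also lower. Of 38 listed BMP genes 26 passed the minimum, 0 were higher and 7 lower, against 2.75% higher and 6.1% lower over all genes. Fstl1, a follistatin-like protein, was 541 CPM in members and 314 CPM in other SCs, and Id1 517 CPM in members and 634 CPM in other SCs, and Id2 and Id4 also stayed within 2-fold, Id4 at 179 CPM in members and 252 CPM in other SCs. At E14 Bmp3 was 2.17 CPM in Tectb-high SCs and 66.6 CPM in other SCs, and Fstl1 1308 CPM in Tectb-high SCs and 380 CPM in other SCs, while Id1, Id2 and Id3 passed 2-fold lower.

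Wnt genes were divided. Sfrp2, a secreted Wnt modulator, was 178 CPM in Tectb-high SCs and 27.3 CPM in other SCs, 6.53-fold higher (5.57 to 7.65), and was present at 7000 UMIs in 76.0% of members, 14.6% of other SCs and 6.21% of HCs. The R-spondin receptors Lgr5 (32.5 CPM in members against 14.1 CPM in other SCs) and Lgr4 (65.6 CPM in members against 30.4 CPM in other SCs), the receptor Fzd5 (11.8 CPM in members against 3.50 CPM in other SCs), the receptor Kremen1 (136 CPM in members against 67.5 CPM in other SCs) and the ligand Rspo3 (11.2 CPM in members against 5.54 CPM in other SCs) were also higher. The Wnt target genes Axin2 (10.7 CPM in members against 37.1 CPM in other SCs), Nkd1 (21.9 CPM in members against 69.5 CPM in other SCs) and Sp5 (8.41 CPM in members against 56.8 CPM in other SCs) were lower, as were Lgr6, Wnt4, Rspo2, Dkk2, Wif1 and Fzd9. The Wnt antagonist Sfrp1 (1032 CPM in members and 1502 CPM in other SCs) and Ctnnb1, beta-catenin (262 CPM in members and 224 CPM in other SCs), stayed within 2-fold. In all 6 of 38 measured Wnt genes were higher and 9 lower, of 50 listed, against 2.75% higher and 6.1% lower over all genes. With levels averaged over cells in place of summed UMIs 2 Wnt genes were higher. Kremen1, at a ratio of 2.01, and Rspo3, at 2.02, stood at the 2-fold limit. Notch genes mostly stayed within 2-fold. Past it were Hes5, a Notch effector, at 127 CPM in members and 61.6 CPM in other SCs, Lfng, a glycosyltransferase that modifies Notch, at 37.6 CPM in members and 82.1 CPM in other SCs, and Hey2 at 34.2 CPM in members and 70.8 CPM in other SCs. Of 18 measured 1 was higher and 2 lower, against 2.75% higher and 6.1% lower over all genes. When cells were averaged or doublets removed 0 were higher. The effectors Hes1 (325 CPM in members and 305 CPM in other SCs) and Hey1 (138 CPM in members and 120 CPM in other SCs) and the receptor Notch1 (140 CPM in members and 185 CPM in other SCs) differed less.

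**Figure D3:**
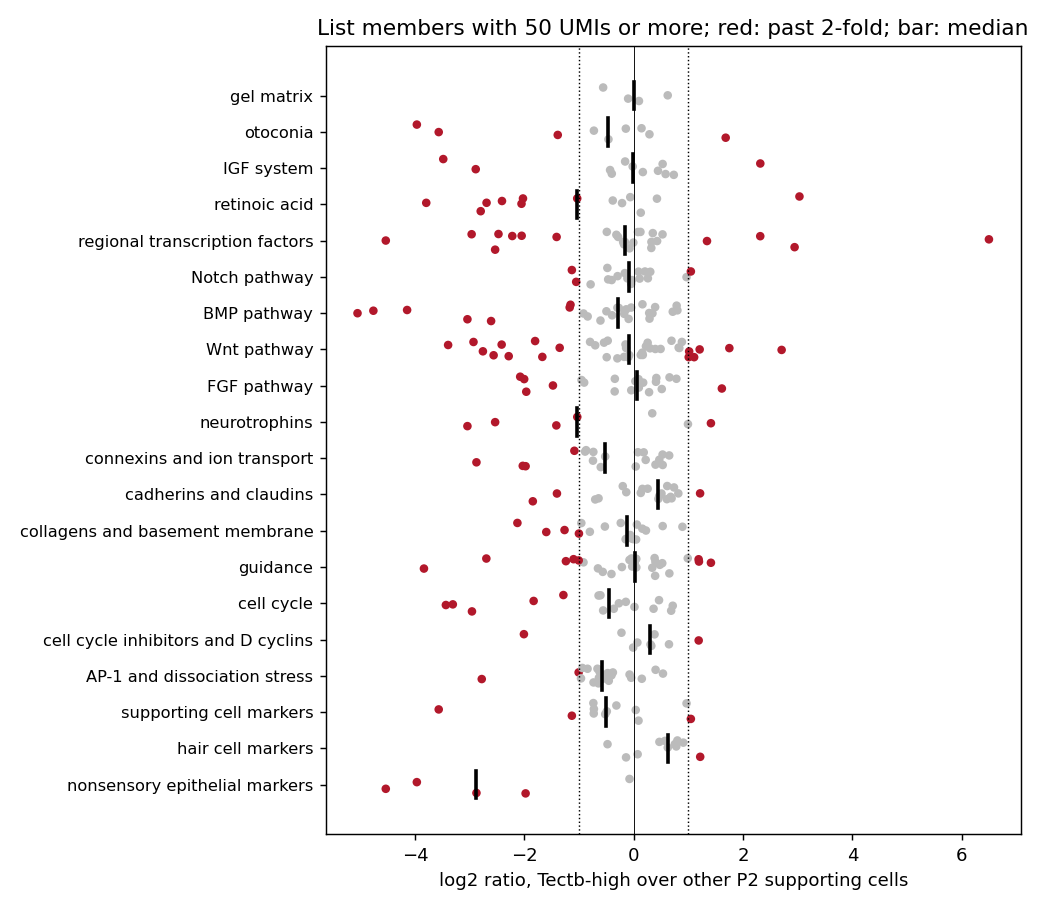
Log2 ratio of CPM in Tectb-high over other P2 supporting cells (x axis) for list members with at least 50 UMIs and at least 1 in the Tectb-high cells, by list, red past 2-fold (dotted lines), black bars the medians. The medians of the nonsensory epithelial and retinoic acid lists were -2.87 and -1.03.

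Among secreted growth factors for neurons and for epithelium, each class held genes that were higher and genes that were lower. Fgf10, a fibroblast growth factor of the sensory and neurogenic otic domain, was 137 CPM in Tectb-high SCs and 44.7 CPM in other SCs (ratio 3.06, 2.62 to 3.57), while Fgf3 was 17.9 CPM in members and 71.8 CPM in other SCs, and Fgf9, Fgf12 and Il17rd, an FGF inhibitor, were lower. Of 24 FGF genes 20 passed the minimum, and Fgfrl1 (149 CPM in members and 140 CPM in other SCs), Etv1 (91.9 CPM in members and 75.6 CPM in other SCs) and Spry1 (84.6 CPM in members and 74.96 CPM in other SCs), a decoy receptor, a transcription factor and an inhibitor of the pathway, stayed within 2-fold. Ntf3, neurotrophin 3, was 101 CPM in members and 37.9 CPM in other SCs (2.66, 2.23 to 3.18), and Bdnf, brain-derived neurotrophic factor, 16.8 CPM in members and 8.44 CPM in other SCs (1.99, 1.28 to 3.02), short of 2-fold. Ntrk2, the receptor of Bdnf, and Nrtn, Gfra1 and Ret, a ligand and receptors of the GDNF family, were lower, each on 36 UMIs or fewer in members. Of 14 listed genes 7 were measured, with 1 higher and 4 lower. Over all genes, to be set beside the FGF and IGF lists too, 2.75% were higher and 6.1% lower. Sort1, sortilin, was 41.5 CPM in members and 32.8 CPM in other SCs. At E14 Bdnf was 55.0 CPM in Tectb-high SCs and 11.0 CPM in other SCs, 4.99-fold higher, and Ntf3 216 CPM in Tectb-high SCs and 68.9 CPM in other SCs. Among the IGF genes, Igfbp4 was 53.8 CPM in members and 398 CPM in other SCs, and Igf1, 2.80 CPM in members and 31.3 CPM in other SCs, and Igfbp6, with 0 UMIs in members and 99 in other SCs, were also lower (13 of 18 measured). The binding proteins Igfbp5 (929 CPM in members and 940 CPM in other SCs) and Igfbp2 (67.8 CPM in members and 91.3 CPM in other SCs) and the receptor Igf1r (112 CPM in members and 82.3 CPM in other SCs) stayed within 2-fold.

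Gel and otoconia genes followed different lines. The gel proteins Tecta (457 CPM in members, 489 CPM in other SCs), Otog (552 CPM in members, 811 CPM in other SCs), Otoa (345 CPM in members, 224 CPM in other SCs) and Otogl (101 CPM in members, 94.7 CPM in other SCs) all stayed within 2-fold, 4 of 8 listed having been measured. Oc90, otoconin 90, the main protein of otoconia, was 132 CPM in members and 2064 CPM in other SCs, a ratio of 0.0641 (0.0561 to 0.0729), and Otop1, a proton channel needed for otoconia, 5.60 CPM in members and 66.3 CPM in other SCs (0.0846, 0.0404 to 0.156). Otol1, otolin, was 1275 CPM in members and 2109 CPM in other SCs, within 2-fold, and Sparc, a calcium-binding matrix protein, 3106 CPM in members and 8123 CPM in other SCs, past it. Sparc and its relative Sparcl1 lay on opposite sides. Sparcl1 was 1759 CPM in members and 548 CPM in other SCs. Of 11 otoconia genes 9 were measured, with 1 higher and 3 lower, against 2.75% higher and 6.1% lower over all genes. At E14 Oc90 was 466 CPM in Tectb-high SCs and 4334 CPM in other SCs, and Otop1 12.3 CPM in Tectb-high SCs and 69.5 CPM in other SCs. Nonsensory epithelial markers summed to 382 CPM in members and 2433 CPM in other SCs at P2. Of 5 measured, Oc90, Slc26a4, an anion exchanger, Kcnq1, a potassium channel, and Lmx1a were more than 2-fold lower, against 6.1% of all genes. HCs held Oc90 at 381 CPM, above the members.

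Of 19 measured connexin and transport genes 0 were higher and 4 lower, Slc26a4, Kcnq1, Kcnj16 and Atp1b1, a sodium pump subunit at 70.6 CPM in members and 288 CPM in other SCs, against 2.75% higher and 6.1% lower over all genes. Gjb2, connexin 26, was 97.0 CPM in members and 139 CPM in other SCs, Slc1a3, a glutamate transporter, 328 CPM in members and 319 CPM in other SCs, and Car2, a carbonic anhydrase, 75.1 CPM in members and 52.0 CPM in other SCs, all within 2-fold. Cdh2, N-cadherin, was 212 CPM in members and 91.2 CPM in other SCs, while Cldn4 and Cldn8, tight junction claudins, were lower, of 19 measured cadherins and claudins. Cldn9 (511 CPM in members and 457 CPM in other SCs), Cldn3 (480.3 CPM in members and 781 CPM in other SCs) and Cldn7 (397 CPM in members and 362 CPM in other SCs) stayed within 2-fold. Of 19 measured collagen and basement membrane genes Col4a1, Col4a4 and Hspg2, components of basement membranes, were lower. The shares over all genes given above for connexins also stand beside the cadherin, collagen and guidance lists. The cartilage-type collagens Col9a2 (1615 CPM in members and 1446 CPM in other SCs), Col9a1 (861 CPM in members and 1238 CPM in other SCs), Col9a3 (411 CPM in members and 455 CPM in other SCs) and Col11a1 (373 CPM in members and 201 CPM in other SCs) stayed within 2-fold. Among guidance genes Epha7 (73.4 CPM in members against 27.5 CPM in other SCs), Unc5c (12.9 CPM in members against 5.63 CPM in other SCs) and Sema3a (9.53 CPM in members against 4.18 CPM in other SCs) were higher and Epha5, Sema3c, Nrp2, Ephb2 and Sema4d lower, Epha5 at 4.48 CPM in members against 64.0 CPM in other SCs, of 28 measured. Sema6a (94.2 CPM in members and 47.4 CPM in other SCs), Ephb1 (118 CPM in members and 82.2 CPM in other SCs) and Epha4 (75.1 CPM in members and 57.0 CPM in other SCs) did not reach 2-fold.

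The cell cycle differed more at E14 than at P2 by the counts of genes past 2-fold, which was not tested. Ccnd1, cyclin D1, was 629 CPM in Tectb-high SCs and 276 CPM in other SCs, and Ccnd2, cyclin D2, 12.9 CPM in members and 51.8 CPM in other SCs, so the D cyclins differed in opposite directions, though no gene of their list was past 2-fold higher when cells were averaged. The 9 measured cyclin and inhibitor genes held no other past 2-fold, with the inhibitors Cdkn1b at 175 CPM in members and 112 CPM in other SCs and Cdkn1c at 205 CPM in members and 239 CPM in other SCs, and Ccnd3 at 97.5 CPM in members and 78.7 CPM in other SCs. Of 31 replication and mitosis genes 16 passed the minimum at P2, with 0 higher and 5 lower, against 2.75% higher and 6.1% lower over all genes, and none of the 5 had more than 7 UMIs in the members. These were Top2a, Cdc20 and Mki67, with 1 UMI each in the members, Cenpf with 3 and Gins2 with 7. Hmgb2 (128 CPM in members and 200.1 CPM in other SCs), Slbp (48.2 CPM in members and 58.1 CPM in other SCs), Mcm7 (26.9 CPM in members and 20.9 CPM in other SCs) and Tyms (25.2 CPM in members and 15.3 CPM in other SCs) were the highest in the members. At E14 all 31 were measured, 23 were more than 2-fold lower in Tectb-high SCs, against 6.88% over all genes at E14, and each had a ratio below 1. Ccnd1 there was 295 CPM in Tectb-high SCs and 363 CPM in other SCs, a ratio of 0.811. Of 22 genes known to respond to dissociation, 19 had a ratio below 1 at P2, against 53.0% of all genes. Of these 2 were past 2-fold, Hspb1, a small heat shock protein (14.0 CPM in members, 96.0 CPM in other SCs), and Jun, an AP-1 subunit (1531 CPM in members, 3073 CPM in other SCs). Fos was 2558 CPM in members and 3325 CPM in other SCs, Egr1 935 CPM in members and 1238 CPM in other SCs and Hspa8 1194 CPM in members and 1257 CPM in other SCs. At E14 19 of 24 had a ratio above 1, against 50.0% of all genes, and the part of this list in the other results was not tested.

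Counting all lists together, 327 of 475 genes passed the minimum, and 23 were higher (7.03%) and 69 lower (21.1%) at P2, against 2.75% and 6.1% over all genes. The lists were chosen with earlier results from these libraries known, so this difference is not independent evidence of direction.

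The E14 library was not used to set the P2 rule, and the P2 ratios were set beside those from E14. Over 10215 genes past the minimum in both libraries, 2.95% were more than 2-fold higher and 4.5% lower at E14. Of 238 genes higher at P2, 100 (42.0%) were more than 2-fold higher at E14 too and 4 lower. Of 509 lower at P2, 221 (43.4%) were more than 2-fold lower at E14 and 3 higher. Tectb chose the cells in both libraries. Of 21 named genes with a ratio in both libraries, 11 were above 1 and 8 below 1 in both. Fabp7 was not, at 151 CPM in Tectb-high SCs and 24.3 CPM in other SCs at P2, but 65.1 CPM in Tectb-high SCs and 102 CPM in other SCs at E14, and Dlk1 was 253 CPM in E14 Tectb-high SCs and 211 CPM in other E14 SCs.

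**Figure D4:**
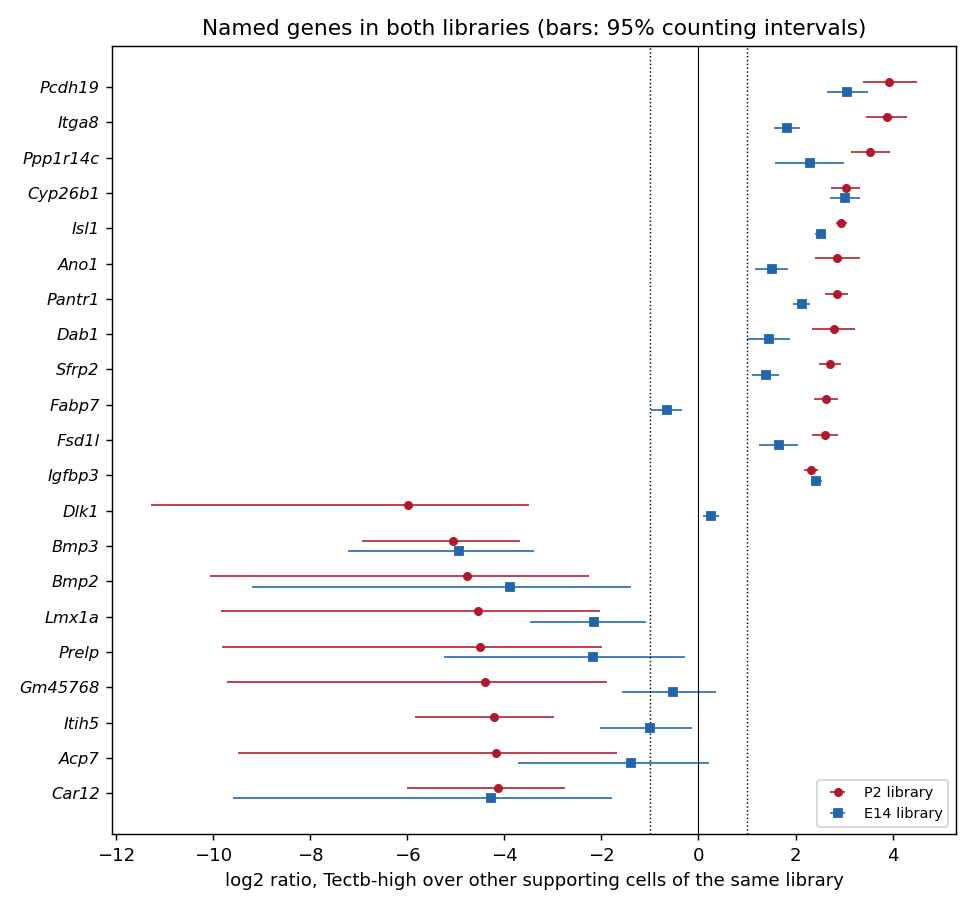
Log2 ratio of Tectb-high over other supporting cells (x axis, 95% counting intervals) for the 21 named genes with a ratio in both libraries, P2 in red circles and E14 in blue squares, dotted lines at 2-fold. Fabp7 and Dlk1 lie on opposite sides of 0 in the 2 libraries.

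The P2 Tectb-high cells were then set against the E14 Tectb-high cells, a comparison that shares its P2 cells with those above. Of 7007 genes 737 (10.5%) passed 2-fold, 451 (6.44%) higher and 286 (4.08%) lower at P2. Among the other SCs, which held more UMIs, 2356 of 12054 genes (19.5%) passed between the ages, 1290 (10.7%) higher and 1066 (8.84%) lower at P2. Sparcl1 was 1759 CPM at P2 and 143 CPM at E14, 12.3-fold higher, Cpa6 19.7-fold, Cspg5, a neural proteoglycan, 453 CPM at P2 and 61.5 CPM at E14, and Fibin, a secreted protein, 76.8 CPM at P2 and 7.24 CPM at E14. Svopl, Vstm4, Anks1b and AY036118 were 6.82-, 6.31-, 5.89- and 11.8-fold higher. Pclaf, a replication factor, had 0 UMIs at P2 and 101 at E14, at least 43.5-fold lower against a floor of 3 UMIs over the group, and Dlk1 1 at P2 and 349 at E14 (ratio 0.00222, 5.60e-05 to 0.0124). Otor and Coch, mesenchymal genes, Hbb-bs, a haemoglobin, Car3, Klf2 and Tpm3-rs7 were also lower, and beside them the 7 mesenchymal markers summed to 10.7 CPM at P2 and 1051 CPM at E14 and the red blood cell markers to 9.53 CPM at P2 and 268 CPM at E14. The part of such RNA in these ratios was not tested. Age and library cannot be told apart. Tectb itself, which the rule used, was 9387 CPM in P2 members and 2335 CPM in E14 members.

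Within the members levels differed by Tectb range, and the ranges also differed in depth, with median UMIs of 1592 in the 28 cells between 5 and 10, 4073 in the 19 between 10 and 20 and 11480 in the 119 at 20 or more. Isl1 was 302, 744 and 802 CPM across these ranges, against 101 CPM below 5. Cyp26b1 was 0, 29.2 and 137 CPM, with 0 UMIs in the lowest range (upper limit 44.5 CPM), against 14.9 CPM below 5. Igfbp3 was 205, 168 and 433 CPM, and Sfrp2 36.2, 146 and 189 CPM, against 80.8 CPM for Igfbp3 and 27.3 CPM for Sfrp2 below 5. Oc90 was lower in each higher range, at 2064 CPM below 5, 712 between 5 and 10, 262 between 10 and 20 and 90.1 CPM at 20 or more. The cells nearest the limit thus held levels between those of the other SCs and the upper range for Oc90 and Isl1.

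**Figure D5:**
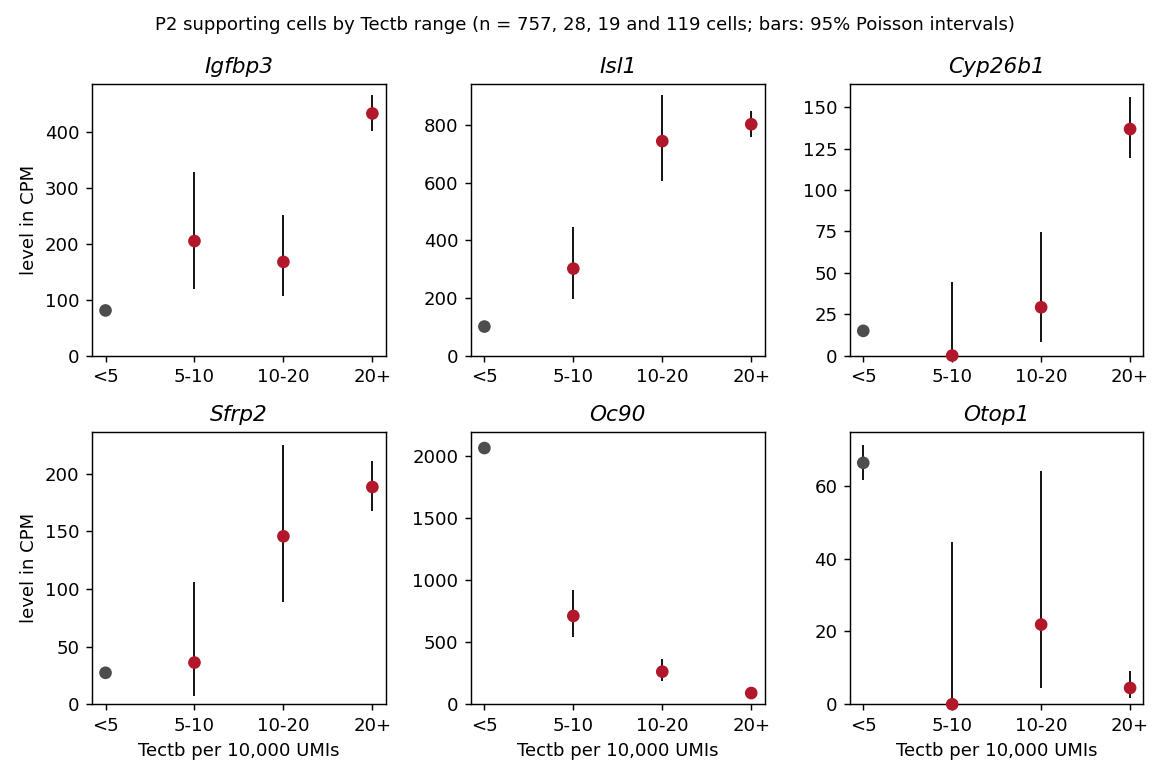
Levels in CPM (y axes, from 0) of 6 genes in P2 supporting cells by Tectb per 10,000 UMIs, below 5 in grey and the 3 ranges of Tectb-high cells in red, bars showing exact 95% Poisson intervals. Isl1 was 101 CPM below 5 and 802 CPM at 20 or more, while Oc90 was 2064 CPM below 5 and 90.1 CPM at 20 or more.

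Clusters of the 923 P2 SCs built without Tectb, the other genes of the rule and all list genes held the members unevenly. Cluster 2 held 136 cells, of which 100 were members (73.5%, exact 95% interval 65.3 to 80.7%), or 60.2% of all members, and 93 of these had Tectb at 20 or more. Cluster 3, of 131 cells, held 55 members, but its median depth was 1795 UMIs and its HC markers summed to 2410 CPM, against 322 CPM in cluster 2. Cluster 0 held 11 members, and clusters 1, 4 and 5, of 214, 110 and 82 cells, held 0. Without the cells of cluster 3, an alternative added after the data were seen, 313 genes were higher and 703 lower, and all 30 named genes stayed past 2-fold. Of the members 6, and of the other SCs 26, were among the 204 P2 cells with the highest doublet scores.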

How the data were processed

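The authors deposited raw UMI counts per gene and barcode, 1 filtered matrix per age, made from pooled tissue with a target of 20000 cells. The submitters' processing notes name Cell Ranger 3.1.0 and Seurat 4.1.1. The methods give GRCm39 and the notes also name mm10, which was not settled, so GRCm38 coordinates given here come from annotation alone and not from the files. Normalization and cell type steps of the study are not part of these counts. Depth was 57003553 UMIs at P2 (6251 barcodes, median 3068) and 122892080 at E14 (15636 barcodes, median 5605), of which 4081 and 11588 barcodes were kept.

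The rule given in the report was applied to both matrices. The members and lists were chosen with earlier results of these data known. UMIs were summed over cells as CPM. Exact 95% intervals are Poisson for CPM, conditional binomial for ratios and binomial for shares. A gene needed 50 UMIs in both groups together, and 3 UMIs over a group served as the floor at 0. Genes were named as the 15 largest and 15 smallest ratios (8 each way between ages) among those with 100 UMIs and a UMI in 10% of the cells of the higher group, and in each of 28 lists (475 genes) as the 4 highest-level members and those past 2-fold. For marker lists of other cell types summed levels are given. Values of some list genes are not reported here. Shares were compared at 7000 UMIs per cell. SCs were clustered by the Leiden method (resolution 0.5, 2000 variable genes, 20 components, 15 neighbours). Doublets were scored by simulation (2 per cell) and kept; 0.8% per 1000 barcodes were removed as an alternative. The ratio calculation was tested on simulated data. Counts were handled in Python 3.11.15 with pandas 2.3.3 and numpy 2.4.6, intervals came from scipy 1.17.1, components from scikit-learn 1.9.0, clusters from leidenalg 0.10.2 on igraph 0.11.9, and plots from matplotlib 3.10.9. Other limits on Tectb, depth, Zpld1, HC markers, mitochondrial share, UMI minimum, fold and scaling were tried. Promoters are from RefSeq and 34 of 34 gene IDs looked up matched GENCODE M21.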

Additional observations from a re-analysis of the deposited data

Results flagged for a closer look

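Rspo3, which encodes a secreted R-spondin that strengthens Wnt signalling, differed in direction between the libraries. At P2 it had 20 UMIs in Tectb-high SCs and 65 in other SCs, a ratio of 2.02 (95% counting interval 1.16 to 3.38). At E14 it had 1 UMI in Tectb-high SCs and 334 in other SCs, a ratio of 0.0228 (0.000576 to 0.128). The difference between the libraries was not tested, as each age has 1 library. It was found for 1 of 335 named and listed genes past the minimum in both libraries.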

How the results depend on the processing

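The number of genes past 2-fold at P2 (971, 302 higher and 669 lower) moved with the minimum and the fold. It was 1561 (500 higher, 1061 lower) with at least 20 UMIs, 385 (104 higher, 281 lower) with at least 200, 5718 (1648 higher, 4070 lower) with no minimum, 2315 (910 higher, 1405 lower) at 1.5-fold and 280 (44 higher, 236 lower) at 4-fold. The Tectb-high share of SCs (17.98%) was 21.78% with a Tectb limit of 2, 14.95% with 10, 12.89% with 20 and 14.34% among cells of at least 5000 UMIs. It was 14.02% without shallow cluster 3, an alternative chosen after seeing the data. With the mean over cells in place of summed UMIs, 530 genes were higher at E14 (331 with sums) and 453 lower between the ages (286 with sums). The share of members with an Igfbp3 UMI was 70.48% without thinning (90.62% with it). Of 450 ratios of named genes under alternatives 53 moved and 0 reversed, and the 30 genes passed 2-fold under each of 15 alternatives except Acp7, at 0.584 with the mean over cells. No paired analysis was possible because each age has 1 library and no result comes from a test. Depth limits the call of shallow cells, where 1 Tectb UMI reaches the limit, and the ratios of genes with few UMIs in the members. Intervals leave out differences between cells, animals and preparations.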
